A study of Mus musculus with 6 samples.

Results

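Mucins are large glycoproteins whose serine- and threonine-rich repeats carry dense chains of sugar, and 10 mucin genes were compared between mouse colon tumours of 2 Dnmt1 genotypes. The genes were taken by name, and each was read from the probe sets that the platform annotation ties to a single gene symbol. All 10 were measured, each by 1 probe set, among 19938 genes in all: 4 secreted, gel-forming mucins (Muc2, Muc5ac, Muc5b and Muc6) and 6 transmembrane mucins (Muc1, Muc3, Muc4, Muc13, Muc16 and Muc20). In the colon the secreted kind, mostly Muc2 from goblet cells, builds the mucus layer that keeps bacteria away from the epithelium. The transmembrane kind stays anchored in the apical membrane and forms the glycocalyx, the coat of the brush border. Secreted mucins are assembled through disulfide bonds in the endoplasmic reticulum and Golgi and stored in granules, whereas several transmembrane mucins carry a cytoplasmic tail and take part in signalling.

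Tumours were taken from mice aged 20 weeks of a mixed C57BL/6 and 129Sv4 background, with 3 tumours in each group. The hypomethylated tumours had the genotype Dnmt1chip/c; ApcMin/+, with a hypomorphic (chip) and a knockout (c) allele of Dnmt1, the maintenance DNA methyltransferase. The control tumours had the genotype Dnmt1chip/+; ApcMin/+, so they carried the chip allele too, together with a wild-type one. Per the study's design text, earlier work found less methylation at pericentromeric satellite repeats in Dnmt1chip/c mice and wild-type levels in Dnmt1chip/+ mice. In both groups the mice also carried the ApcMin allele, which predisposes to intestinal tumours, and received 2% (w/v) dextran sodium sulfate, a colon irritant, at the age of 6 weeks. The labels do not state that the tumours of a group came from separate mice. Their descriptions share a number among all 3 hypomethylated tumours and between 2 of the control tumours, so the p-values cover the differences among these tumours only, and an effect of the single mouse and of the genotype cannot be told apart if the numbers stand for mice.

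The values are log2 values (the base was inferred, as no label states it), set so that the median over the 6 arrays is 0 for each probe set. They give differences between tumours and no level, so no mucin can be called abundant or scarce against another. One indirect sign of level remains: the smallest step between values is coarser where the numbers before centring were all 8 or above, although a probe set can also fall on the coarse step by chance. By this sign Muc1, Muc2, Muc4, Muc6 and Muc13 lay at 8 or above in all 6 tumours, as did 51.0% of all genes, and the other 5 had at least 1 tumour lower. In the hypomethylated tumours Dnmt1 was lower, with a log2 difference of -0.87 ± 0.06 (SE; limma, adjusted p = 3.13e-04) and values of -0.37, -0.48 and -0.42 there and 0.44, 0.52 and 0.37 in the control tumours. Where its probes lie relative to what the 2 mutant alleles change is not known here, so this is no check of the genotypes.

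The stretch around the transcription start is shown for the 5 mucin genes that passed the test described next, because the genotype alters the methylation of CpG dinucleotides and these windows show how few or many CpG each start holds. Each is the RefSeq sequence of the GRCm38.p6 build, 250 bases before to 50 bases after the start, 5′ to 3′ on the gene's own strand, with CpG dinucleotides in capitals. Muc2 is at chr7:141690090-141690389 (plus strand), Muc3 at chr5:137165997-137166296 (minus strand), Muc4 at chr16:32735636-32735935 (plus strand), Muc13 at chr16:33793787-33794086 (plus strand, the upstream one of 2 start sites) and Muc1 at chr3:89228806-89229105 (plus strand).
Muc2: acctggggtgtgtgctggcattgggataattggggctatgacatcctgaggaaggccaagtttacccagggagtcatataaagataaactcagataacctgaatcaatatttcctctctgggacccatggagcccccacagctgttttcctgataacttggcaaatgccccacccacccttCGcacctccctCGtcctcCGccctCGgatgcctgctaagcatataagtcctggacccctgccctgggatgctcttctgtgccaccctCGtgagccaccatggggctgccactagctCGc
Muc3: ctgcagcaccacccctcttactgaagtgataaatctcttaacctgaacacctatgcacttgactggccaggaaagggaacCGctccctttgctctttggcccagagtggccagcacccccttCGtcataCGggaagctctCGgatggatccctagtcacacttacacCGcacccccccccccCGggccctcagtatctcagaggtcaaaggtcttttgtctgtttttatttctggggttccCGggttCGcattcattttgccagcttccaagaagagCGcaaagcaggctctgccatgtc
Muc4: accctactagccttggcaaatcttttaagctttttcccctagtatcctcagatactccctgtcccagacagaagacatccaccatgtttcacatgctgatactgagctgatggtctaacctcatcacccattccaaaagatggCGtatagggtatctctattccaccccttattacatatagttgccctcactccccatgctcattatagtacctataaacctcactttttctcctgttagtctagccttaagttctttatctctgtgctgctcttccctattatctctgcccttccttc
Muc13: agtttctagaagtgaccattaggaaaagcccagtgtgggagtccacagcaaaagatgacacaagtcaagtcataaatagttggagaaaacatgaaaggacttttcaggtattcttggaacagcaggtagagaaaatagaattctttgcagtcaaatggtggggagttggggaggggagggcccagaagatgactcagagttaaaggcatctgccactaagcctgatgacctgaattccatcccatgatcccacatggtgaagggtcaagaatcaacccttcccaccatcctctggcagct
Muc1: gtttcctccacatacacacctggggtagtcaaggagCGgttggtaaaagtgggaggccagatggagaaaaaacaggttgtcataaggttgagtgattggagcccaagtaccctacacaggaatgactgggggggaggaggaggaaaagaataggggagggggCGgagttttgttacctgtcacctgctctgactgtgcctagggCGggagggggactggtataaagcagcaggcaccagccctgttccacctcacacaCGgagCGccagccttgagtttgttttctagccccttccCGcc
These windows held 6 CpG in Muc2, 9 in Muc3, 1 in Muc4, 0 in Muc13 and 6 in Muc1. The median over the 32851 windows of all genes was 7 CpG, and 5.43% of them held fewer than 1. The second start site of Muc13 had 4 CpG. Of the mucins that did not pass the test, Muc6 and Muc20 had 6 and Muc16 had 1, and for Muc5ac and Muc5b no window was used. DNA methylation itself was not analysed here.

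Of the 10 mucin genes, 5 passed the test, limma over all genes with a Benjamini-Hochberg adjusted p under 0.05. Muc3, Muc4, Muc2 and Muc13 rose in the hypomethylated tumours, by 3.60, 2.89, 1.41 and 0.36 on the log2 scale, and Muc1 fell by 0.61. The 5 that did not pass were Muc5ac, Muc5b, Muc6, Muc16 and Muc20, of which Muc20 passed under some other settings and the rest, as lower, where arrays were centred on epithelial genes. For the background, 10.7% of all 19938 genes were called higher and 21.3% lower, 32.0% in all. Without control replicate 1 the called genes numbered 4199, against 6380 with all tumours. Groups did not overlap in 5 of the 10 mucins, the same 5, against 46.4% of all genes. The median difference was 0.08 for the secreted and 0.35 for the transmembrane mucins, against -0.01 for all genes.

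**Figure D1:**
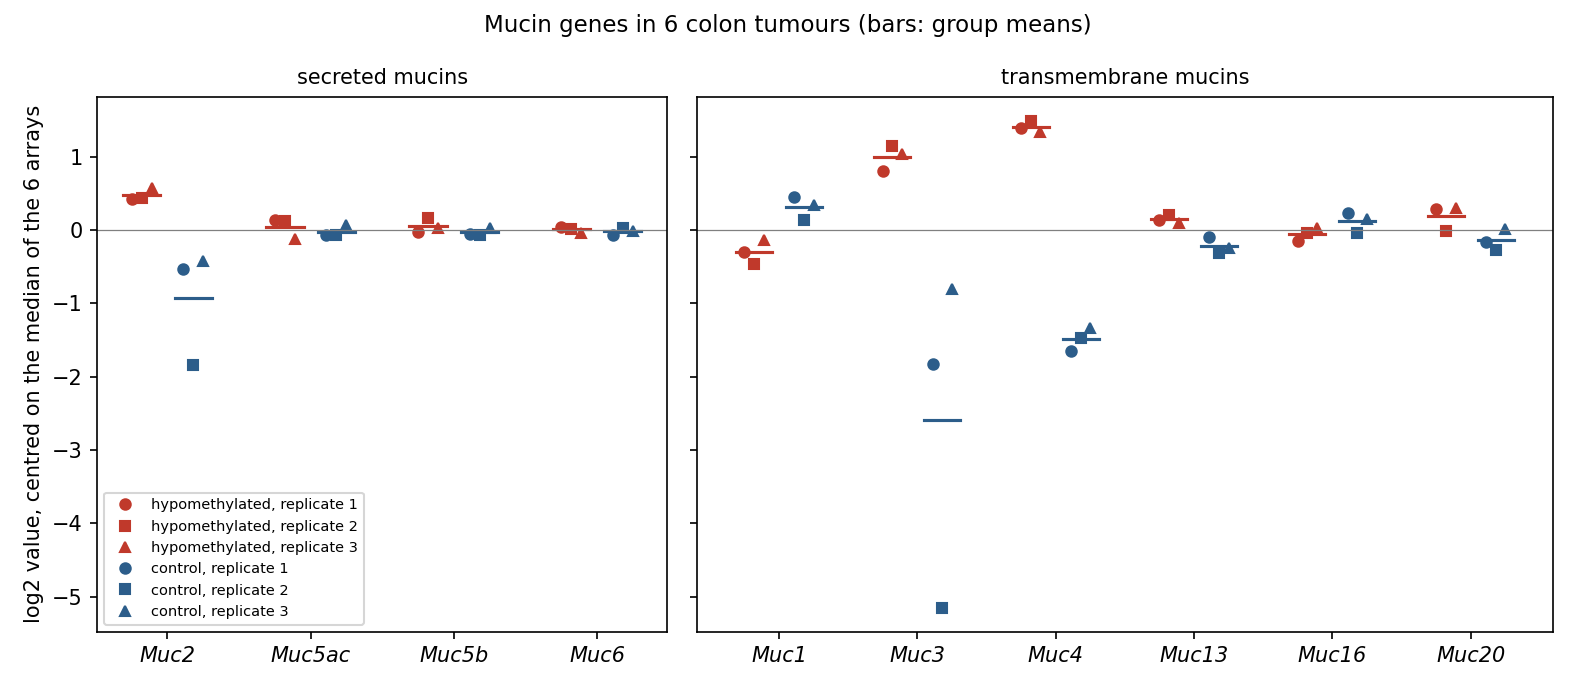
Centred log2 value (vertical axis) of each mucin gene in the 3 hypomethylated tumours (red, left) and the 3 control tumours (blue, right), with marker shape for the replicate and a bar for the group mean. Muc4 has 2 tight groups 2.89 apart, whereas in Muc2 and Muc3 control replicate 2 lies at -1.84 and -5.15, far below the other control tumours.

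Among the secreted mucins Muc2, the gel-forming mucin of goblet cells, had centred values of 0.42, 0.43 and 0.57 in the hypomethylated tumours, against -0.54, -1.84 and -0.42 in the control tumours. All 3 hypomethylated tumours lay within a range of 0.15 and above every control tumour, and control replicate 2 was the lowest by a wide margin. The means were 0.47 ± 0.08 in the hypomethylated and -0.93 ± 0.79 in the control tumours (SD, n = 3 each), a rise of 1.41 ± 0.35 (SE; 95% interval 0.58 to 2.23; limma, adjusted p = 0.0207), or 2.65-fold. Without control replicate 2 the rise was 0.95 and its adjusted p = 0.00181, so a smaller difference was measured with a smaller spread. Without hypomethylated replicate 2 or hypomethylated replicate 3 the call was lost, with an adjusted p = 0.0591 and an adjusted p = 0.0652 in limma.

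Muc5ac, the mucin of the gastric surface that intestinal tumours can take on, had values of 0.14, 0.12 and -0.13 in the hypomethylated tumours, against -0.06, -0.07 and 0.06 in the control tumours. Its groups overlapped, and the difference was 0.07 (95% interval -0.14 to 0.27). Muc5b, a gel-forming mucin of airways and salivary glands, differed by 0.09 (interval -0.08 to 0.25) and Muc6, the mucin of gastric glands, by 0.03 (interval -0.10 to 0.16). In limma the adjusted p-values of these 3 genes were 0.618, 0.405 and 0.761. The upper bounds of 0.27, 0.25 and 0.16 are all below the rise of Muc2. All values of Muc6 lay between -0.07 and 0.04, on a probe set whose step places it at 8 or above before centring. Muc5ac and Muc5b had at least 1 tumour below 8 by the same sign, no background signal was used, and whether a floor lay under their values was not tested.

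These 4 genes lie next to one another on mouse chromosome 7, in the order Muc6, Muc2, Muc5ac, Muc5b in the GRCm38.p6 annotation. Muc2 alone of the 4 passed the test, although with arrays centred on epithelial genes, an alternative chosen after the data were seen, Muc5ac, Muc5b and Muc6 were called lower at -0.24, -0.23 and -0.28. Set against Muc5ac within each tumour, Muc2 stood at 0.28, 0.31 and 0.70 in the hypomethylated tumours and at -0.47, -1.77 and -0.48 in the control tumours, a difference of 1.34 between the groups. Against Muc5b and Muc6 the difference between the groups was 1.32 and 1.38. The exact permutation test, two-sided, gave p = 0.1 for each of these 3 and for the comparison described with Muc4 (0.1 after Benjamini-Hochberg adjustment over the 4), which is the smallest p that 3 against 3 allows. Muc2 and Muc4 alone already separated the groups, by 0.84 and 2.67, more than the subtracted genes varied. The p-values of the pairs therefore followed from the choice of genes and add no evidence, and these 3 comparisons share the values of Muc2. The genes flanking the group, Ap2a2 of clathrin adaptors and Tollip of innate immune signalling, differed by 0.18 and -0.15 and did not pass (limma, adjusted p = 0.135 and 0.0852), though Ap2a2 passed without hypomethylated replicate 3 and Tollip with array weights.

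Of the transmembrane mucins Muc4, a large mucin with EGF-like domains that is known to bind the receptor ErbB2, separated the groups most clearly. It had values of 1.40, 1.49 and 1.33 in the hypomethylated tumours, against -1.65, -1.47 and -1.33 in the control tumours. The lowest hypomethylated tumour stood 2.67 above the highest control tumour, and no tumour of either group strayed from its own. The means were 1.41 ± 0.08 and -1.48 ± 0.16 (SD, n = 3 each, hypomethylated and control), a rise of 2.89 ± 0.09 (SE; 95% interval 2.68 to 3.10), or 7.41-fold (limma, adjusted p = 3.13e-05). It was the 46th largest increase among 19938 genes. Leaving out any one tumour moved the rise only between 2.81 and 2.96, and it kept its call each time. By the step of its values the gene was at 8 or above in all 6 tumours.

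Muc20, a mucin known from kidney, neighbours Muc4 on chromosome 16. Its values of 0.28, -0.02 and 0.30 in the hypomethylated tumours overlapped with -0.17, -0.27 and 0.02 in the control tumours. The difference of 0.33 ± 0.11 (SE; interval 0.07 to 0.60) had an adjusted p = 0.0628 in limma and was not called. It passed, in the same direction, with quantile normalization (0.38, adjusted p = 0.0448), with array weights (0.38, adjusted p = 0.0115), without hypomethylated replicate 2 (0.43) and without control replicate 3 (0.41). Muc4 minus Muc20 within a tumour was 1.11, 1.51 and 1.03 in the hypomethylated and -1.48, -1.19 and -1.35 in the control tumours, 2.56 apart (exact permutation test, two-sided, p = 0.1). Tnk2, a tyrosine kinase gene on the other side of Muc4, rose by 0.23 (limma, adjusted p = 0.0219), a call lost in each fit without 1 tumour except that without hypomethylated replicate 1.

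Muc3, a mucin of the brush border, had the largest difference of the 10 and the widest spread. The hypomethylated tumours had values of 0.81, 1.15 and 1.04, against -1.83, -5.15 and -0.81 in the control tumours. The 3 control tumours spanned 4.34 on the log2 scale and the 3 hypomethylated ones 0.34, and the groups did not overlap. The rise was 3.60 ± 0.99 (SE; 95% interval 1.25 to 5.94), 12.1-fold, with an adjusted p = 0.0306 in limma, and it ranked as the 16th largest increase. Control replicate 2 set much of that size: without it the rise was 2.32, with an adjusted p = 0.00461. The call was lost without control replicate 1 and without each of the hypomethylated replicates (adjusted p between 0.0540 and 0.0883 in limma) and with robust eBayes (adjusted p = 0.0586). At least 1 of the tumours had a value below 8 before centring, and whether control replicate 2 lay at a floor was not tested. A related gene, Muc3a, is annotated nearby on chromosome 5, and whether the probes also read it is unknown here.

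Muc13, a transmembrane mucin of the apical surface of enterocytes and goblet cells, rose by a small and even amount. Its values were 0.14, 0.20 and 0.10 in the hypomethylated tumours, against -0.10, -0.32 and -0.24 in the control tumours. The groups did not overlap, and the rise was 0.36 ± 0.07 (SE; interval 0.19 to 0.54), or 1.29-fold (limma, adjusted p = 0.00895). It stayed called without any one tumour, at 0.32 to 0.42. Epithelial marker genes as a group were higher by a mean of 0.31 in the same tumours, with single genes from -0.21 to 1.02. With each array centred on those genes Muc13 differed by 0.053 (limma, adjusted p = 0.529) and was not called.

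Muc1, a mucin of glandular epithelia with a signalling cytoplasmic tail, was the one member called lower. The hypomethylated tumours had values of -0.30, -0.46 and -0.14, against 0.45, 0.14 and 0.35 in the control tumours. Every hypomethylated tumour was below every control tumour, with the highest of the hypomethylated group at -0.28 from the lowest control tumour. Muc1 fell by 0.61 ± 0.11 (SE) on the log2 scale (95% interval -0.87 to -0.35; limma, adjusted p = 0.00612), a 1.53-fold lower value. Leaving out single tumours gave -0.70 to -0.53, and centring on the epithelial genes gave -0.92, called in every case. It ranked as the 1119th largest decrease. Muc16, known as the CA125 antigen of mucosal surfaces, had values of -0.15, -0.03 and 0.03 in the hypomethylated tumours, against 0.23, -0.04 and 0.15 in the control tumours. These overlapped, with a difference of -0.17 (interval -0.37 to 0.04; limma, adjusted p = 0.203). Its probe set is tied to the gene through a cDNA record, and which exons it covers is unknown here.

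**Figure D2:**
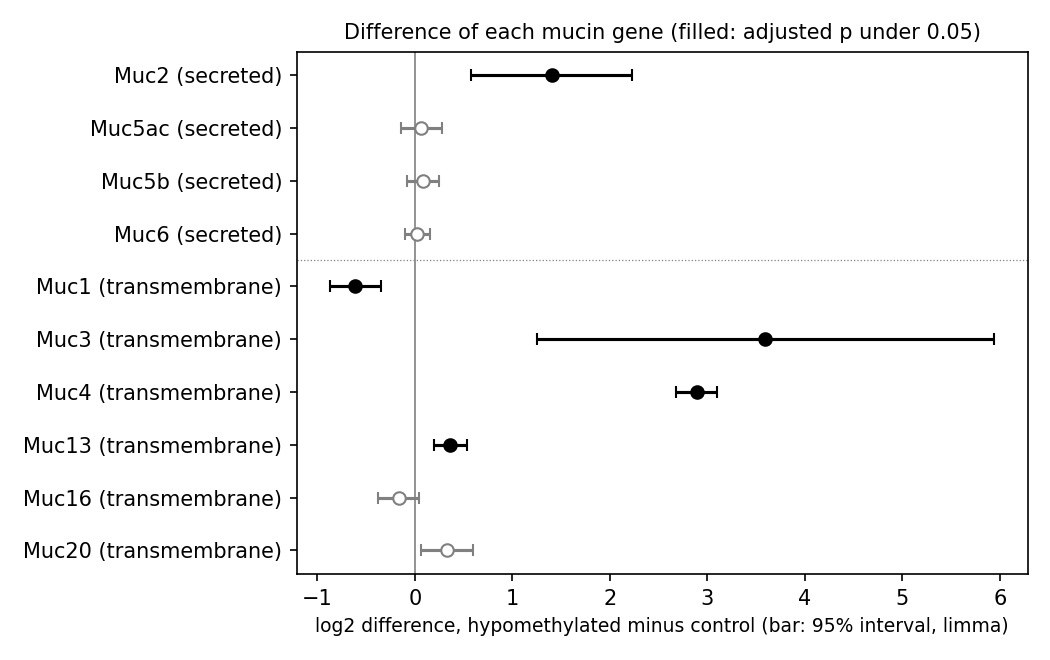
Difference of each mucin gene (horizontal axis, log2, hypomethylated minus control) with its 95% interval from limma, secreted mucins above the dotted line and transmembrane mucins below it. Filled points passed an adjusted p of 0.05: Muc2, Muc3, Muc4 and Muc13 to the right of 0 and Muc1 to the left, with Muc3 (1.25 to 5.94) far less precise than Muc4 (2.68 to 3.10).

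Set side by side, 1 of the 4 secreted mucins was called higher and none lower, and 3 of the 6 transmembrane mucins were called higher and 1 lower. The shares over all genes were 10.7% higher and 21.3% lower. The mean of the secreted mucins minus the mean of the transmembrane mucins was -0.22, -0.20 and -0.34 in the hypomethylated tumours, against 0.33, 0.70 and 0.22 in the control tumours. The mean difference was 0.40 for the secreted and 1.07 for the transmembrane kind, -0.67 apart, and the medians of 0.08 and 0.35 were -0.27 apart. Muc3 and Muc4 carry most of the transmembrane mean and Muc2 most of the secreted one. No test was made of these summaries, since the members were chosen with results known. The gap between the kinds was -0.53 without control replicate 2 and -0.49 with quantile normalization.

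The control tumours differed among themselves in several of these genes. Control replicate 2 was the lowest of the 6 tumours in 5 of the 10 mucins, among them Muc2, Muc3 and Muc13, and in 25.2% of all genes. Among the genes called higher, where a control tumour was the lowest in every case, it was control replicate 2 in 45.2%, and in 3 of the 4 mucins called higher. It was also lowest in 11 of 12 measured goblet cell products and 10 of 12 genes of absorptive colonocytes, but in 3 of 12 general epithelial markers. The mean of the epithelial markers was -0.14 in control replicate 2, between -0.16 and -0.13 in control replicates 1 and 3. Muc4 did not follow this, its lowest tumour being control replicate 1.

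Of 12 measured goblet cell products, the genes whose proteins goblet cells release or use beside Muc2, 9 were called higher and none lower, with a median of 0.97. Among all genes 10.7% were called higher and 21.3% lower. Agr2, an endoplasmic reticulum protein needed for Muc2 folding, rose by 1.17 ± 0.10 (SE), the resistin-like Retnlb by 4.06 ± 0.60 and the trefoil peptide Tff3, which is stored with Muc2, by 0.84 ± 0.18. Guca2a, the peptide guanylin, rose by 2.45 and Tpsg1, a membrane-anchored tryptase, by 1.01. Clca1, a protease that loosens the Muc2 network, rose by 3.35 ± 0.99 (limma, adjusted p = 0.0392), a call lost with robust eBayes and without hypomethylated replicate 1, 2 or 3 or control replicate 1; without control replicate 2 it was 2.20. Zg16, a lectin of the mucus layer, had values of 0.16, 0.34 and 0.40 in the hypomethylated tumours, against -2.37, -6.15 and -0.16 in the control tumours. Like Muc2 and Muc3, it was far lower in control replicate 2, and its difference of 3.19 ± 1.32 did not pass (limma, adjusted p = 0.113). It was 1.56 without control replicate 2, and it passed without control replicate 3 (4.56) and with quantile normalization (2.17).

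Enzymes that build the mucin sugar chains were called higher in 17 of 28 cases and lower in 3, with a median of 0.63. Galnt7, a GalNAc transferase, rose by 1.17, the core enzyme C1galt1 by 0.80, the sulfotransferase Chst4 by 1.86 and the fucosyltransferase Fut2 by 0.85. Gcnt3, which makes branched cores, rose by 2.42 ± 0.25 (SE) and the sialyltransferase St6galnac1 by 1.73 ± 0.17. Factors of mucin folding, granules and release, Agr2 again among them, were mixed: 6 of 19 were higher and 3 lower, with a median of 0.08. Over all genes the shares were 10.7% higher and 21.3% lower. Mep1b, the protease that detaches Muc2 from the small intestinal surface, rose by 3.46. The inflammasome sensor Nlrp6 rose by 1.53 and Ern2, the stress sensor of goblet cells, by 0.75. The 3 called lower were Unc13b (-0.38), Ern1 (-0.26) and Napa (-0.23), and Best2 differed by -0.91 without passing (limma, adjusted p = 0.0679).

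Among transcription factors of the secretory lineage and intestinal identity 8 of 15 were called higher and 1 lower, with a median of 0.34, against 10.7% higher and 21.3% lower over all genes. Cdx2, a homeobox factor known to activate MUC2 in human cells, rose by 3.49 ± 0.23 (SE), Spdef, the goblet cell factor, by 1.29 ± 0.17, Klf4 by 1.54 ± 0.23 and Atoh1, which sets secretory fate, by 1.03 ± 0.20. Hnf4a rose by 0.60 and Foxa2 fell by 0.78. In the start windows printed above, the Cdx core letters TTTAT, searched on both strands (ATAAA on the other), occurred 2 times each in Muc2, Muc3 and Muc4 and 1 time each in Muc13 (first start site) and Muc1. In Muc2 the matches began at -173 and -167 from the start, in Muc3 at -222 and -26, in Muc4 at -35 and 7, in Muc13 at -179 and in Muc1 at -30. The second start site of Muc13, not printed above, had 0 matches. Muc6, which did not pass the test, had 1 match, Muc16 and Muc20 had 0, and 40.0% of all windows held at least 1. ATAAA also stands within the TATA box letters TATAAA, so these matches are a description of the letters and not sites of a factor.

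Gastric markers were looked at because Muc5ac and Muc6 are gastric mucins. Of 14 measured, 5 were called higher and 1 lower, with a median of 0.28, against 10.7% higher and 21.3% lower over all genes. The stomach trefoil genes Tff1 and Tff2, last of the list by p in limma, differed by 0.013 and 0.023 and were not called. A4gnt and Anxa10 rose by 1.06 and 0.57 (limma, adjusted p = 0.0146 and 0.0173). Gkn3, a gastrokine, rose by 0.96, the claudin Cldn18 by 0.46 and Vsig1, a stomach adhesion molecule, by 0.74, while the protease gene Ctse fell by 0.68. Centred on epithelial genes, Cldn18 differed by 0.15 and was not called (limma, adjusted p = 0.0839). Of 13 other mucin-like genes 1 was higher and 3 lower, beside the same shares over all genes, with a median of 0.04. Emcn and Cd34, sialomucins of endothelium, fell by 0.91 and 0.59 and Tmem123 by 0.73. The higher one, Parm1, rose by 0.25 (limma, adjusted p = 0.0313), and its call needed hypomethylated replicates 2 and 3 and control replicates 1 and 2, being lost without any one of these.

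**Figure D3:**
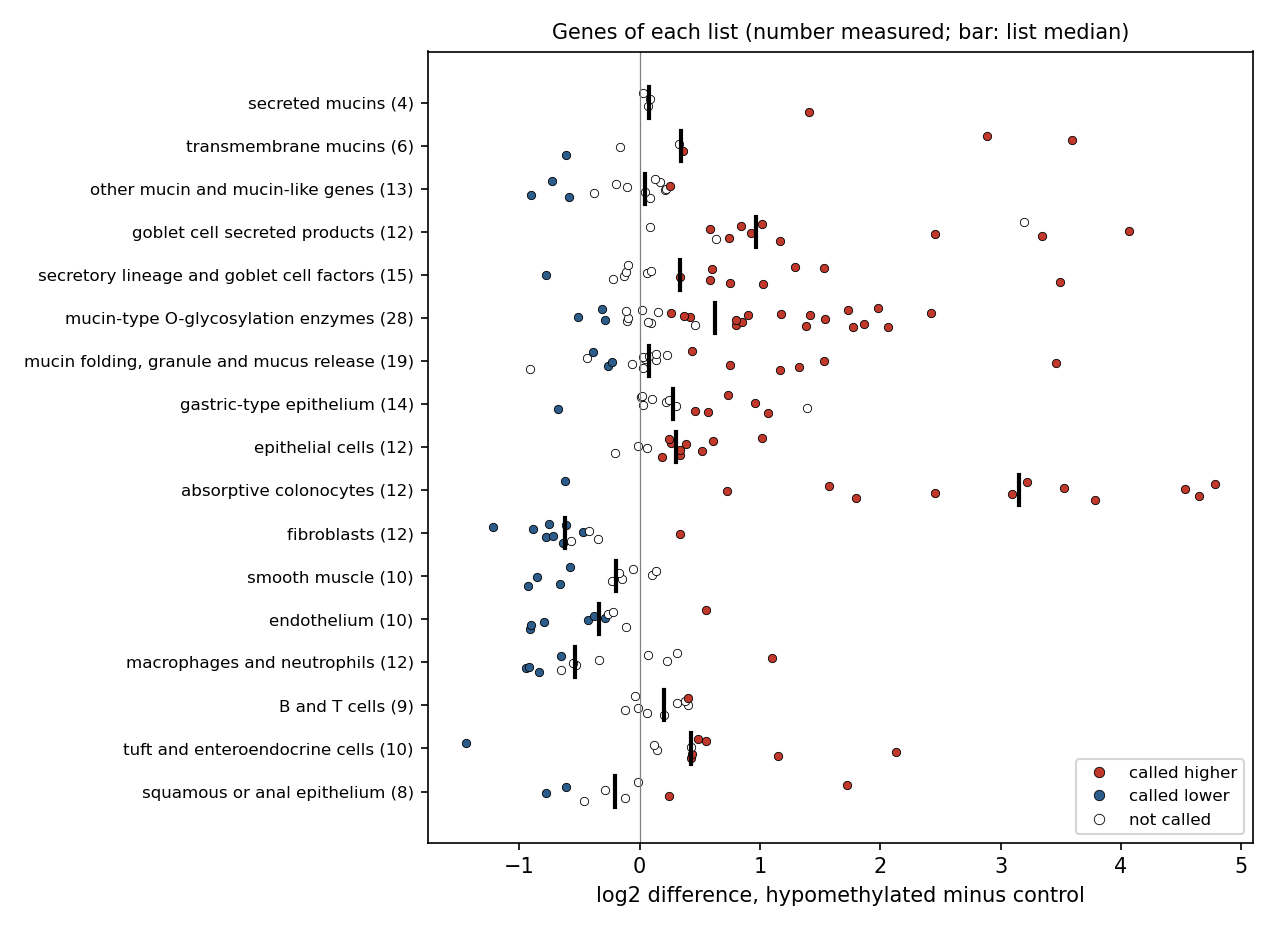
Difference of every measured gene (points, log2, hypomethylated minus control) in each gene list, with the number measured in brackets, a bar at the list median, red for called higher and blue for called lower. Muc4 at 2.89 and Muc3 at 3.60 lie on either side of the median of the absorptive list, 3.16, and above that of the goblet list, 0.97. The other transmembrane mucins lie between -0.61 (Muc1) and 0.36 (Muc13). The secreted mucins other than Muc2 lie near 0, and fibroblast genes have a median of -0.62.

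Several lists of cell type markers differed between the groups, to be read beside 10.7% of all genes called higher and 21.3% lower. The tumour means of the macrophage and neutrophil, the squamous, and the B and T cell lists overlapped between the groups. Fewer cells of a type cannot be told apart from less RNA per cell in whole tumours. Epithelial markers were called higher in 9 of 12 cases, with tumour means of 0.12 to 0.25 in the hypomethylated and -0.16 to -0.13 in the control group. Vil1, of the brush border core, rose by 1.02, Lgals4 by 0.61, Cldn7 by 0.52 and Krt19 by 0.38 (0.071 and not called when centred on the list itself). Epcam differed by 0.06 (limma, adjusted p = 0.453). Cldn4 and Krt18 differed the other way, by -0.21 and -0.02, and were not called (limma, adjusted p = 0.0504 and 0.873). Genes of absorptive colonocytes were called higher in 11 of 12 cases and lower in 1, with a median of 3.16 and tumour means of 0.94 to 1.62 in the hypomethylated and -1.93 to -0.99 in the control group. Fibroblast markers were called lower in 8 of 12 and higher in 1, with tumour means of -0.49 to -0.10 in the hypomethylated and 0.11 to 0.42 in the control group. Endothelial markers were called lower in 6 of 10 and higher in 1 (means of -0.42 to -0.04 in the hypomethylated and 0.07 to 0.21 in the control tumours), and smooth muscle markers lower in 4 of 10 (-0.25 to -0.08 in the hypomethylated and 0.08 to 0.29 in the control tumours). Those of macrophages and neutrophils were lower in 4 of 12 and higher in 1, with means of -0.57 to 0.17 in the hypomethylated and -0.09 to 0.23 in the control tumours. Among tuft and enteroendocrine markers 6 of 10 passed as higher and 1 as lower, and among squamous markers 2 of 8 as higher and 2 as lower. Centred values cannot show whether a marker is at 0. Among B and T cell markers 1 of 9 was higher, with a tumour mean of 0.60 in hypomethylated replicate 1 and -0.14 to 0.16 in the other 5 tumours. The part of these markers in the mucin differences was not tested. With arrays centred on the epithelial markers Muc4 was higher by 2.58, Muc3 by 3.29 and Muc2 by 1.10, all called. That centring takes 0.31 off the difference of every gene, and it called 14826 genes lower. It cannot separate cell content from RNA per cell.

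The genes closest in pattern, by Euclidean distance between mean-centred values over the 6 tumours, were found for Muc2 and Muc3. Because they were picked from these same values, differences like those of the 2 mucins and a low control replicate 2 follow from the choice. Nearest to Muc2 were Smpdl3a, a phosphodiesterase gene (distance 0.57), the glycosyltransferase gene B3gnt7 (0.64) and Dmbt1, of a mucosal scavenger protein (0.66), against a median distance of 2.06 over all genes. Smpdl3a and B3gnt7 rose by 1.56 and 1.21, and Dmbt1 differed by 1.39 without passing (limma, adjusted p = 0.0957). The call of Smpdl3a was lost without hypomethylated replicate 2, and Dmbt1 passed without control replicate 2 (0.68), without control replicate 3 and with quantile normalization. Nearest to Muc3 were Adgrg7, an adhesion receptor gene of the intestine (distance 0.62), 2610528A11Rik (0.89) and the gasdermin gene Gsdmc4 (0.93), against a median of 5.45. They rose by 3.29, 3.41 and 3.62, and each had control replicate 2 at -4.52 or below. All 3 calls were lost without hypomethylated replicate 2, hypomethylated replicate 3 or control replicate 1, and Gsdmc4 was 2.25 without control replicate 2.

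**Figure D4:**
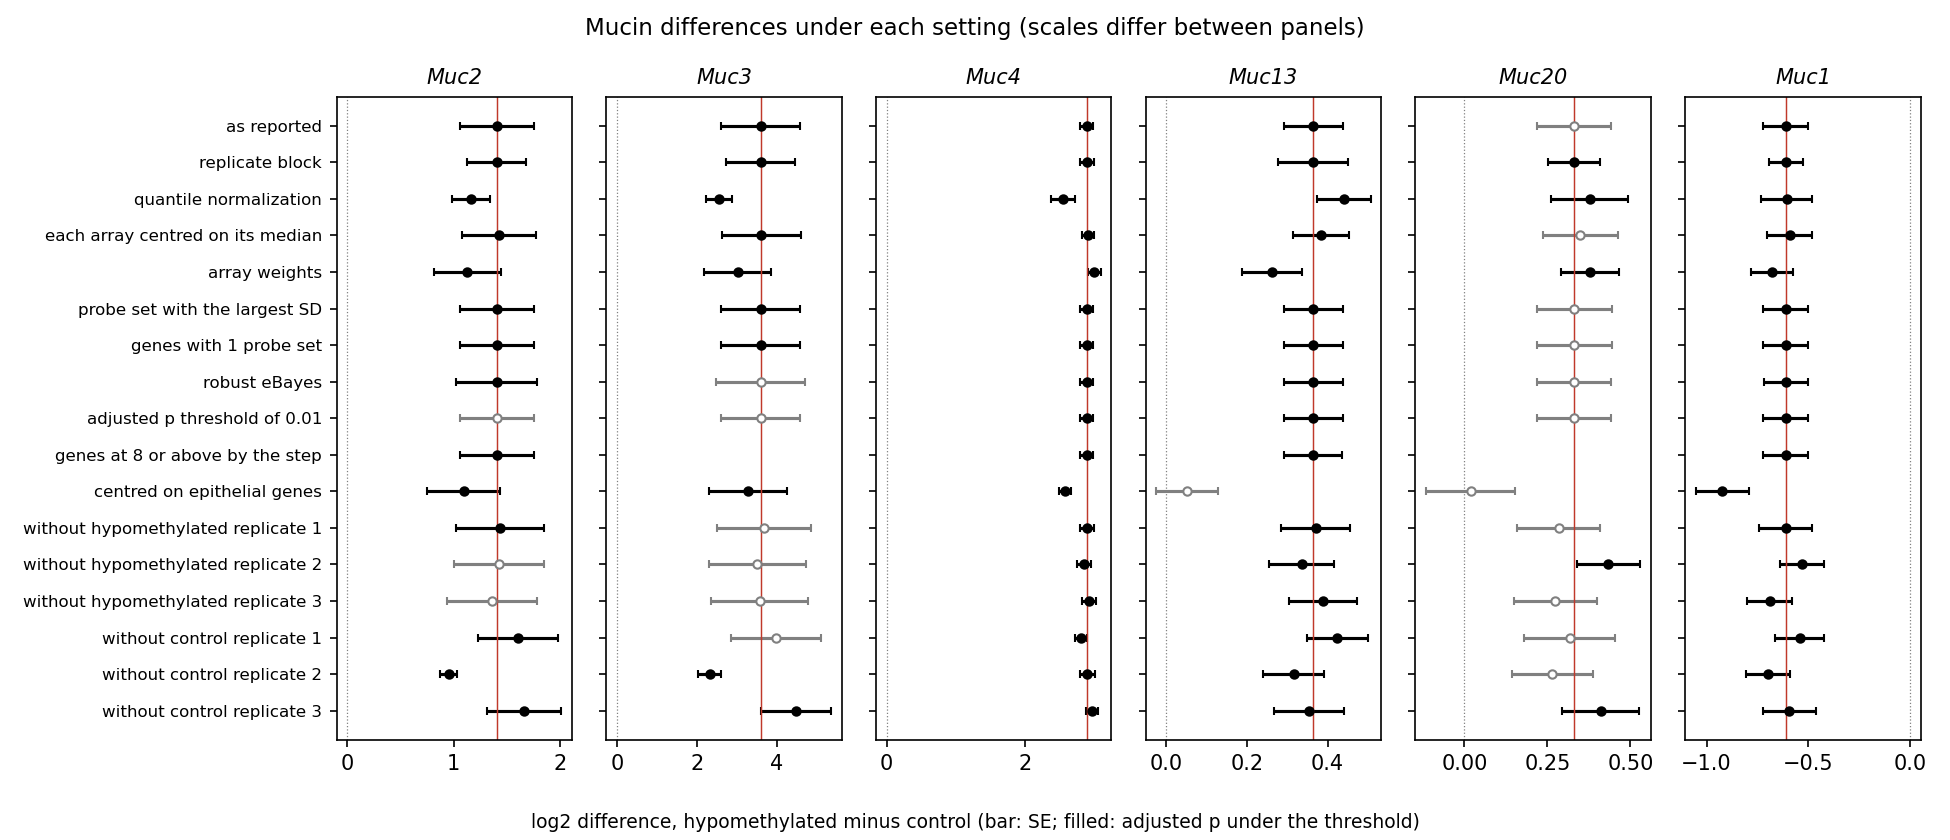
Difference of 6 mucin genes (horizontal axes, log2, hypomethylated minus control, bars for SE, a scale of its own in each panel) under each way of processing and with each tumour left out, filled where the adjusted p passed and with a red line at the reported value. Muc4 and Muc1 stay called throughout, Muc3 ranges from 2.32 to 4.49 when 1 tumour is left out, and Muc13 drops to 0.053 when arrays are centred on epithelial genes.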

How the data were processed

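Total RNA of 6 mouse colon tumours was extracted with a column kit and labelled with biotin for arrays, per the labels' protocols; some sample descriptions name the MoGene 1.0 ST type. The deposited table holds log2 values for 28856 probe sets, centred on each probe set's median; the base was inferred from the values, and how the authors normalized the arrays was not given in the sources used here. Probe sets with 1 gene symbol (21789) were named through the platform annotation and RefSeq names (GRCm38.p6; 19856 genes matched by Entrez number) and averaged to 19938 genes. The coarser step was taken as 2 to the power of -20 within 0.25 of a step.

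Groups follow the genotypes in the labels. Hypomethylated minus control was fitted with limma (lmFit, eBayes without trend, no block, two-sided), with Benjamini-Hochberg adjustment over all genes and a threshold of 0.05; intervals are 95%. Gene pairs were compared with the exact permutation test, two-sided, which has 20 assignments of 3 against 3. No filter on low values was used, except in one alternative. Alternatives were the replicate block, quantile and median normalization, array weights, another choice among probe sets, robust eBayes, a stricter threshold, genes at 8 or above by the step, centring on epithelial genes, and each tumour left out. Quantile normalization was run on the centred values, so it gave every array the same spread of deviations and did not act on signal levels. The script was tested on simulated data. Arrays carry no counts; their number limits the precision.

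The members and all gene lists were chosen with earlier results of these data known. Named were all members, the 4 list genes with the smallest p of each described list of mucus, gastric, epithelial and mucin-like genes, 14 fixed genes (of which Fcgbp has no probe set of its own symbol), and the 3 nearest patterns of Muc2 and of the transmembrane mucin with the largest called difference; flanking genes were added by position, and Apc is given in the closing section. Other marker lists are given by counts. Named beyond these rules were Tff1, Tff2, A4gnt and Anxa10 of the gastric list and Cldn4 and Krt18 of the epithelial list. From the list of folding, granules and release, Unc13b, Napa, Ern1 and Best2 were also named. Agr2, Elf3 and Emcn are each counted in more than 1 list. Same-numbered tumours of the 2 groups were checked for shared deviations and are not treated as pairs. R 4.3.3, limma 3.58.1, Python 3.11.15, pandas 2.3.3 and matplotlib 3.10.9 were used.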

Additional observations from a re-analysis of the deposited data

How the results depend on the processing

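Muc1 and Muc4 kept their direction and call under all 10 other settings and in the 6 fits without 1 tumour. Not all of these could change the difference. Each mucin has 1 probe set, so the settings that choose among probe sets left its values as they were. The replicate block, robust eBayes, the stricter threshold and the step filter also leave a difference unchanged and bear on the call only. Leaving out 1 tumour gave 0.95 to 1.66 for Muc2, 2.32 to 4.49 for Muc3 and 0.26 to 0.43 for Muc20, and 2 (without hypomethylated replicate 3) to 5 mucins called higher; over all genes it gave 4199 to 6593 calls, 1407 to 2323 higher and 2792 to 4270 lower. With an adjusted p threshold of 0.01, 3511 genes were called, 1192 higher and 2319 lower, and 2 mucins were higher, as Muc2 (1.41) and Muc3 (3.60) no longer passed; robust eBayes also lost Muc3 (3.60). Muc20 passed with array weights (0.38) and quantile normalization (0.38). With the replicate block 2714 genes were called lower and Muc20 passed (0.33, adjusted p = 0.0411); same-numbered tumours deviated apart (correlations of -0.29, -0.31 and -0.22), so the numbers give no pairing and the block was not used. Centring on the epithelial genes, chosen after the data were seen, lowers every difference by 0.31, since that is the mean rise of those genes. It called 15829 genes, 1003 higher and 14826 lower, and 5 mucins lower, with Muc5ac, Muc5b, Muc6 and Muc16 at -0.24, -0.23, -0.28 and -0.48, and Muc13 at 0.053, Cldn18 at 0.15 and Krt19 at 0.071 were not called; Parm1, Epcam, Tnk2 and Ap2a2 turned to -0.057, -0.25, -0.084 and -0.14. Apc differed by -0.23 (limma, adjusted p = 0.115) and was called lower with array weights (-0.28), without hypomethylated replicate 1 (-0.34) and with epithelial centring (-0.54). Of the single-gene values under other settings, fits without 1 tumour included, 808 kept direction and call, 52 lost it, 17 gained it and 7 turned; the cause was not tested. Keeping only genes at 8 or above by the step left 10160 genes and none of Muc3, Muc5ac, Muc5b, Muc16 and Muc20, and gave no secreted minus transmembrane value. Centred values carry no signal over background, so genes near the array's floor could not be set apart.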
